A study of Mus musculus with 10 samples.

Results

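Complexes II, III, IV and V complete the mitochondrial respiratory chain. Complex II (succinate dehydrogenase) also works in the citric acid cycle. Complex III passes electrons to cytochrome c, complex IV (cytochrome c oxidase) passes them to oxygen, and complex V (ATP synthase) uses the resulting proton gradient to make ATP. Most of their subunits are encoded in the nucleus, the catalytic subunits of complex IV and cytochrome b of complex III in mitochondrial DNA. In the developing cortex, neurons are known to rely on oxidative phosphorylation more than dividing progenitors do.

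Genes were taken by name from a deposited table of TPM (a level per transcript length, on a total that is the same in every library): names that begin with Sdha, Sdhb, Sdhc, Sdhd, Uqcr, Cox and a digit, or Atp5, and Cyc1 and Cycs. This gave 36 of 6147 genes. By role they were 3 subunits of complex II, 9 of complex III, 9 of complex IV (with Cox7a2l counted there), 10 of complex V and 5 assembly factors that share the prefixes. Cycs, Sdhc and the mitochondrially encoded subunits (0 of a list of 6 have a row) are not analysed here. All 36 genes passed the filter on low values, a mean of at least 1 TPM over all libraries.

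Mice were wild type and of CD1, an outbred strain, and their neocortex was taken on embryonic days E12.5, E14, E15.5 and E17 and at birth (P0). The animals carried no transgene or treatment that the labels mention. There were 2 libraries per stage, 10 in all, described by the submitters as biological duplicates; litter, sex and pooling are not given. No read totals are stated for the libraries, so precision rests on the spread between libraries.

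The 2 libraries of E17 differed from each other more than those of other stages, which touches each value that rests on E17. Of the 36 genes, 26 had their lowest value of all 10 libraries in E17 replicate 1, and 30 were lower in replicate 1 than in replicate 2. The median difference was -0.23 on the log2 scale, against 0.16 for all genes tested. It was -0.43 for the 68 ribosomal protein genes and -0.24 for 32 genes named as subunits of complex I. Among other genes it was -0.21 for 244 with a transcript under 1000 bases and 0.17 for 5767 with a longer one; 18 of the 36 genes are under 1000 bases. The part of transcript length or RNA quality in these differences was not tested.

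**Figure D1:**
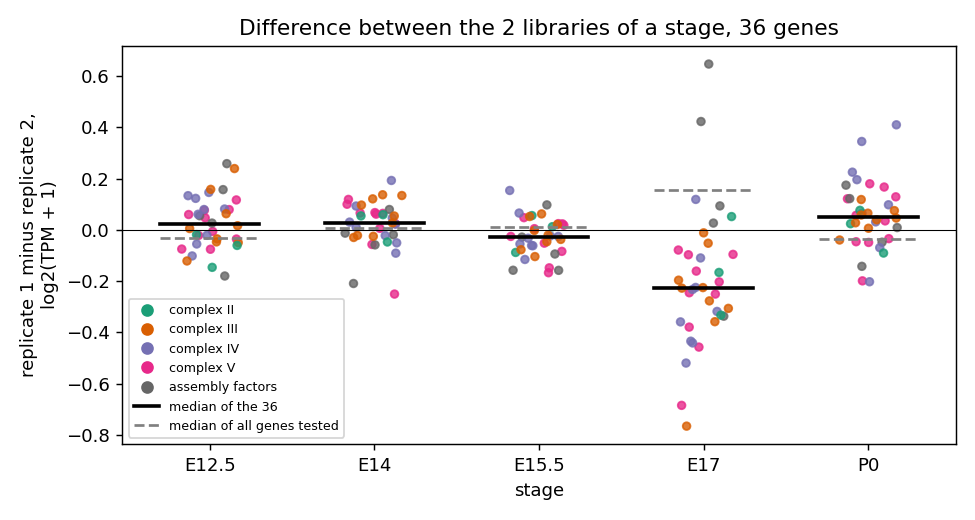
Difference between replicate 1 and replicate 2 at each stage on the log2(TPM + 1) scale (y axis), with a point for each of the 36 genes coloured by complex, their median as a black line and the median of all genes tested as a dashed line. At E17 the median of the 36 genes is -0.23 and that of all genes 0.16, while at the other stages both lie between -0.04 and 0.05.

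Few of these genes differed between E12.5 and birth. Of the 36 genes, 5 were higher and 4 lower at P0 than at E12.5 (limma, Benjamini-Hochberg adjusted p under 0.05 over all 6048 genes tested), whereas 27.1% of all genes tested were called higher and 51% lower, 78.2% in either direction. The median change was 0.02 on the log2(TPM + 1) scale, against -0.27 for all genes. The median size of change regardless of direction was 0.161 against 0.62, with a median standard error (SE) of 0.102 against 0.107. A change of at least 0.5 in either direction was seen in 4 of the 36 genes (11.1%) and in 58.2% of all genes. In bulk RNA, fewer cells of a type and less RNA per cell cannot be told apart. The largest changes were in single genes: Sdha and Cox17 fell, and Atp5l and Cox7a2 rose.

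The direction of this balance depended on the scaling. Under median-of-ratios scaling, which brings the median change of all genes to -0.01, the median of the 36 genes was 0.30, with 19 called higher and 2 lower. The shares of all genes given above belong to TPM as deposited, so they cannot be set beside these counts. The split of calls, 5 higher and 4 lower on TPM as deposited, also moved when single libraries were left out. This held for E17 libraries too, which leave these estimates unchanged but enter the spread that the tests use. Leaving out a library of E12.5 or P0 moves the estimates as well, and the part of each was not tested.

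**Figure D2:**
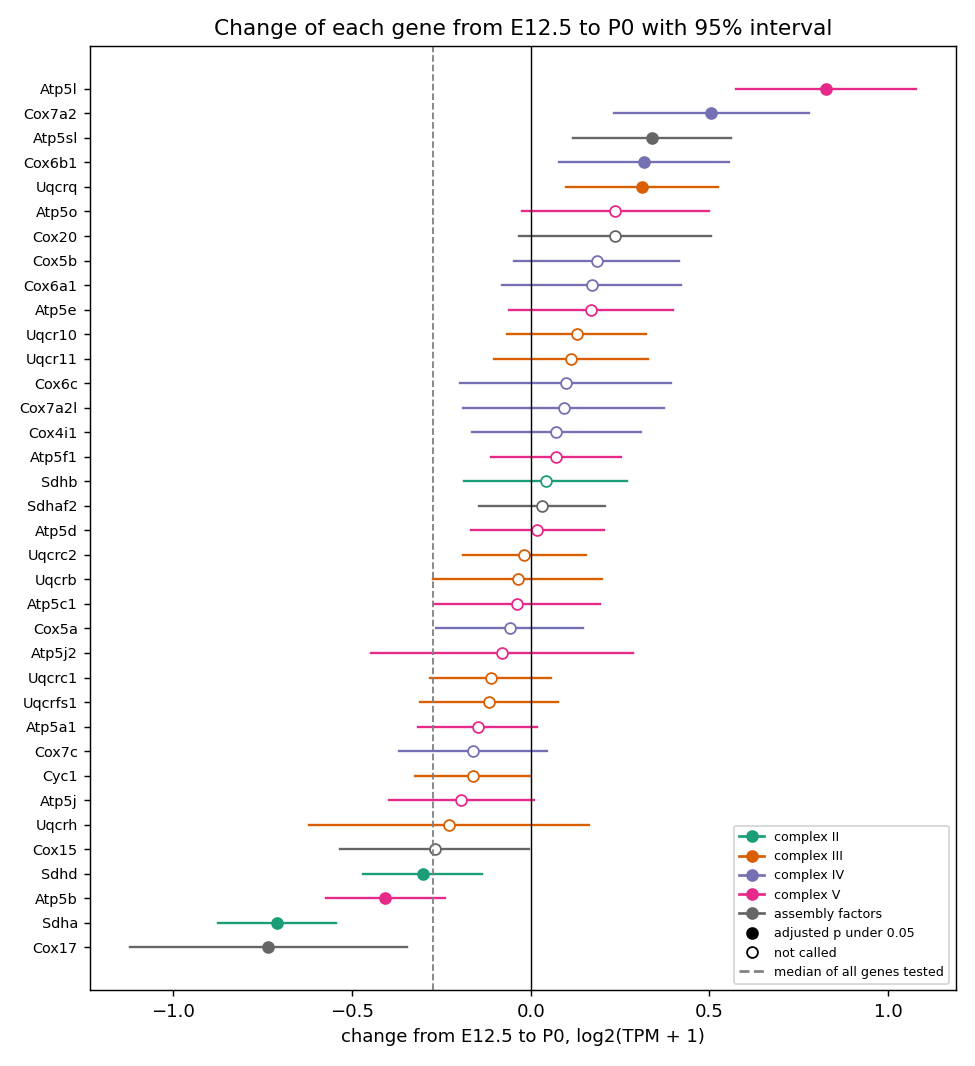
Change of each of the 36 genes from E12.5 to P0 on the log2(TPM + 1) scale (x axis), sorted by size, with 95% intervals from limma as lines and colours for the complex. Filled points (9 genes) had an adjusted p under 0.05, and the open points lie to the right of the dashed line, the median of all genes tested (-0.27).

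Levels differed far more between genes than between stages. Over the 10 libraries, mean TPM of the 36 genes ran from 15.3 for Cox17 to 1006 for Atp5e, with a median of 322, against a median of 42.8 for all genes tested. By mean TPM, 23 of the 36 lay in the top 10% of the table. Atp5e had the highest mean of the 36 genes at each of the 5 stages. Within one gene, the highest library was between 1.15 times (Sdhaf2) and 3.06 times (Cox17) the lowest.

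**Figure D3:**
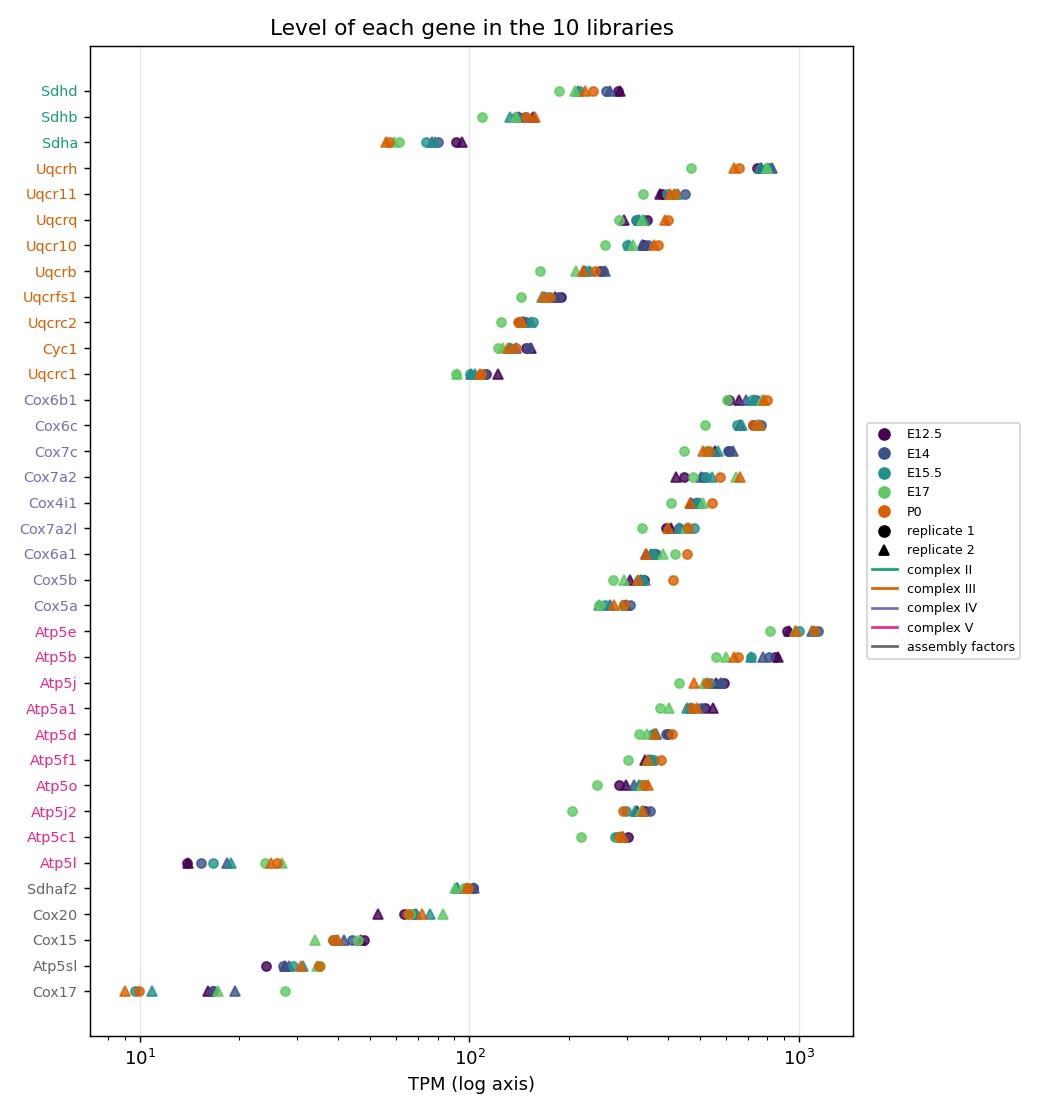
TPM of each gene (log axis) in the 10 libraries, grouped by complex and sorted by mean, with colours for the stage, circles for replicate 1 and triangles for replicate 2. Most genes span a narrow range across stages, E17 replicate 1 (light green circle) is often the lowest point, Atp5l (mean 19.9 TPM) lies well below the other subunits, and the assembly factors, with Cox17 lowest (15.3 TPM), have means of at most 97.3 TPM.

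In complex II the subunits parted from one another. Sdha is the flavoprotein that oxidises succinate (GRCm38 chromosome 13, bases 74322254 to 74350280, reverse strand). It was at 90.9 and 94.9 TPM at E12.5, 80.2 and 77.2 at E14, 73.7 and 78.4 at E15.5, 61.1 and 58.9 at E17, and 56.9 and 55.9 at P0. Every library of E17 and P0 lay below every library of the earlier stages. From E12.5 to P0 Sdha fell by 0.71 (SE 0.07, limma adjusted p 3.79e-06), and the call held in each of 20 alternatives, between -0.74 and -0.44.

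Sdhb, the iron-sulphur subunit that takes electrons from Sdha, was at 141 and 156 TPM at E12.5, 147 and 141 at E14, 138 and 133 at E15.5, 109 and 138 at E17, and 148 and 157 at P0. Its E12.5 and P0 libraries overlapped, with a difference of 0.04 (95% interval -0.19 to 0.27, limma adjusted p 0.72). The ratio of Sdhb to Sdha in TPM was 1.55 and 1.64 at E12.5 and 2.60 and 2.82 at P0. This ratio was chosen after its values were seen and was not tested.

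Sdhd, one of the membrane anchors and the subunit with the highest level of the complex II genes here, was at 283 and 286 TPM at E12.5, 259 and 267 at E14, 215 and 213 at E15.5, 186 and 209 at E17, and 237 and 224 at P0. The P0 values were under those of E12.5 and over those of E17. It fell by 0.30 from E12.5 to P0 (SE 0.08, limma adjusted p 0.00327). Between E14 and E15.5 the change was also -0.30 (limma adjusted p 0.00674). With median-of-ratios scaling, its change over the whole period was -0.03 (adjusted p 0.818).

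Sequences at the start of Sdha and Sdhb are shown because these genes of one complex moved apart. Those of Cox7a2 and Cox6b1, described below, are shown as genes of complex IV that were higher at P0. Of the 150 bases before each RefSeq start site (GRCm38.p6), between 25 and 68 lie inside the gene as GENCODE M21 annotates it, so the first line for each gene gives only the bases before that annotated gene, in the direction of the gene. They are chr13:74350281-74350390 for Sdha (reverse strand), chr4:140961121-140961202 for Sdhb (forward), chr9:79759879-79760003 for Cox7a2 (reverse) and chr7:30626152-30626264 for Cox6b1 (reverse). Capitals mark a match on either strand to the letters CATGCGC, a core of the motif of NRF1, or CCGGAAG, a core of the ETS motif that GABP binds. Both factors are known activators of respiratory chain genes.
Sdha: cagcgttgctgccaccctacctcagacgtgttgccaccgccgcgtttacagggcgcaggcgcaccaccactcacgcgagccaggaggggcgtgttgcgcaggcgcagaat
Sdhb: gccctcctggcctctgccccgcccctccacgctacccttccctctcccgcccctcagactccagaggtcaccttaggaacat
Sdhb site: agcccagtgggCATGCGCcctacgggccgc
Cox7a2: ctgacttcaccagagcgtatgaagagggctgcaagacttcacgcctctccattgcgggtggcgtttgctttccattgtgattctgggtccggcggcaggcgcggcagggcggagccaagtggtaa
Cox6b1: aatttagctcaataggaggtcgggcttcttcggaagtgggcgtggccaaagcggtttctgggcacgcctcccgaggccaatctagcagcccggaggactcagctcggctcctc
Cox6b1 site: ctctcgcagCTTCCGGccagtcggaattcc
The Sdhb site (chr4:140961207-140961236) holds the first and the Cox6b1 site (chr7:30626122-30626151) the second, the latter on the other strand. Both matches lie before the RefSeq start but inside the annotated gene, in bases that GENCODE counts as transcribed. None of the 4 stretches before the annotated genes holds either run of letters. Only these exact letters were searched, and variants of either motif were not. A stretch without capitals, such as that of Sdha, therefore does not show that a site is absent.

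RefSeq start sites were found for 28 of the 36 genes. In the window from 250 bases before to 50 after a start, the NRF1 letters were present in 6 of the 28 (21.4%), against 9.4% of the 4841 genes of the table with an entry and 4.41% of all 27025 genes. The ETS letters were present in 12 (42.9%), against 22.5% and 9.93%. Either was present in 14 (50%), against 29.5% and 13.5%. These windows can take in transcribed bases, and a match is a description of the letters that does not show binding. Atp5a1, Cox17, Cox4i1, Cox6c, Cyc1, Uqcrb, Uqcrc2 and Uqcrq had no entry.

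Transcripts of these factors were lower at P0. All 4 genes in the table from a list of 15 regulators of mitochondrial gene expression were lower than at E12.5, where 51% of all genes tested were, and the median change was -1.12. Gabpa, the DNA-binding subunit of GABP, went from 95.04 ± 4.75 TPM at E12.5 (SD, n = 2) to 40.4 ± 2.19 at P0, a change of -1.21 (SE 0.08, limma adjusted p 8.8e-08). Nrf1 went from 44.2 to 18.5 TPM (-1.21) and Gabpb1 from 72.2 to 34.7 TPM (-1.03). Tfam, which packages mitochondrial DNA and takes part in its transcription, went from 135 to 86.7 TPM (-0.63). Gabpa and Atp5j have exons that overlap on opposite strands, so their reads can be told apart only if the counting used strand, which is not given.

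Complex III had 1 of 9 genes called between E12.5 and P0. Uqcrq, a small supernumerary subunit, was at 347 and 293 TPM at E12.5, 321 and 326 at E14, 321 and 339 at E15.5, 284.6 and 333 at E17, and 399.8 and 392 at P0. Both P0 libraries were the highest of the 10. It rose by 0.31 (SE 0.10, limma adjusted p 0.0118), a call lost without E12.5 replicate 2 or P0 replicate 1, with adjusted p of up to 0.151. It was 0.19 without E12.5 replicate 2 and 0.59 under median-of-ratios scaling.

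Uqcrh, the hinge protein between cytochrome c1 and cytochrome c, had the highest level of complex III and the lowest value of change. It was at 743 and 767 TPM at E12.5, 813 and 829 at E14, 797 and 763 at E15.5, 470.1 and 800.0 at E17, and 655 and 634 at P0. The 2 libraries of E17 spanned all other values but those of E14. The difference from E12.5 to P0 was -0.23 (95% interval -0.62 to 0.16, limma adjusted p 0.256), although the P0 values were both under those of E12.5.

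The electron-carrying subunits of complex III were at lower levels and were not called from E12.5 to P0. Cyc1 (cytochrome c1) ranged from 122 to 153 TPM over the 10 libraries and Uqcrfs1 (the Rieske iron-sulphur protein) from 143 to 189.8 TPM. The core proteins Uqcrc1 and Uqcrc2 ranged from 91.0 to 122 TPM and from 124.7 to 156 TPM. The differences from E12.5 to P0 were -0.16 for Cyc1 (limma adjusted p 0.0612), -0.12 for Uqcrfs1 (0.237), -0.11 for Uqcrc1 (0.202) and -0.02 for Uqcrc2 (0.84). The small subunits Uqcrb, Uqcr10 and Uqcr11 were at -0.04, 0.13 and 0.11, none of them called.

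Complex IV had 2 of 9 genes called, both higher. Cox7a2 is the form of this subunit found in most tissues (GRCm38 chromosome 9, bases 79755361 to 79759878, reverse strand). It was at 448 and 423 TPM at E12.5, 511 and 504 at E14, 523 and 546 at E15.5, 476 and 643 at E17, and 576 and 663 at P0. Both E12.5 libraries were the lowest of the 10. It rose by 0.50 (SE 0.12, limma adjusted p 0.00284) and passed the threshold in each of 20 alternatives, with 0.78 under median-of-ratios scaling.

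Cox6b1, a subunit on the outer face of the enzyme that links its monomers, had the highest level of complex IV. It was at 614 and 659 TPM at E12.5, 738 and 691 at E14, 718 and 729.6 at E15.5, 603 and 773 at E17, and 801 and 783 at P0. Both P0 libraries were above the other 8. It rose by 0.32 (SE 0.11, limma adjusted p 0.0185), which lost its call without E12.5 replicate 1, P0 replicate 1 or P0 replicate 2, with adjusted p of up to 0.117. It was 0.59 under median-of-ratios scaling.

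Cox7c, another small subunit, had the lowest value of change in complex IV. It was at 614 and 555 TPM at E12.5, 607 and 629 at E14, 525 and 568 at E15.5, 446 and 524 at E17, and 534 and 511 at P0. The P0 values were both under those of E12.5, with a difference of -0.16 (95% interval -0.37 to 0.05, limma adjusted p 0.139).

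Several subunits of complex IV have tissue paralogs, and the form found in most tissues was the one measured here. Cox4i1 was at 490.3 and 469.9 TPM at E12.5, 483 and 491 at E14, 491 and 499 at E15.5, 409.8 and 511 at E17, and 546 and 466 at P0. Cox6a1 was at 362 and 342 TPM at E12.5, 367 and 356 at E14, 357 and 366 at E15.5, 420.2 and 387 at E17, and 457 and 344 at P0. Neither gene separated E12.5 from P0, with differences of 0.07 (limma adjusted p 0.554) and 0.17 (0.188), and both E17 libraries of Cox6a1 lay above the 6 earlier ones. The other subunits, Cox5a, Cox5b and Cox6c, differed by -0.06, 0.18 and 0.10 and were not called.

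Of 10 listed paralog pairs, 1 had both genes in the table. Cox7a2l, a relative of Cox7a2 known for joining complexes III and IV into supercomplexes, was at 395 and 409.9 TPM at E12.5, 431 and 459 at E14, 481 and 432 at E15.5, 334 and 453 at E17, and 459 and 400.5 at P0. Its libraries of E12.5 and P0 overlapped. The log2 level of Cox7a2l minus that of Cox7a2 was -0.18 and -0.04 at E12.5 and -0.33 and -0.73 at P0. The F statistic over stages had an exact permutation p = 0.144 among 945 splits into pairs, which allow a smallest p of 0.00106; it was 0.0169 without P0 replicate 1.

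Complex V had 1 gene called higher and 1 lower of 10. Atp5b, the catalytic beta subunit, was at 843 and 864 TPM at E12.5, 809 and 775 at E14, 715 and 712 at E15.5, 561 and 599.8 at E17, and 652 and 636 at P0. The libraries of E12.5, E14, E15.5, P0 and E17 formed 5 groups that did not overlap, in that order from high to low. Over the whole period it fell by 0.41 (SE 0.08, limma adjusted p 0.000398). Under median-of-ratios scaling this was -0.13 (adjusted p 0.257).

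Atp5a1, described here after its values were seen, is the alpha subunit that alternates with beta in the catalytic head. It was at 519 and 547 TPM at E12.5, 502 and 468 at E14, 463 and 455 at E15.5, 378 and 404 at E17, and 473 and 489 at P0. The P0 libraries lay below those of E12.5 and above those of E17. The difference from E12.5 to P0 was -0.15 (95% interval -0.31 to 0.02, limma adjusted p 0.0934). The ratio of Atp5a1 to Atp5b was 0.616 and 0.633 at E12.5 and 0.726 and 0.769 at P0, a ratio chosen after its values were seen and not tested.

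Atp5e, the epsilon subunit of the central stalk, was at 917 and 931 TPM at E12.5, 1141 and 1091 at E14, 1000 and 1108 at E15.5, 817 and 969 at E17, and 1106 and 976 at P0. The difference from E12.5 to P0 was 0.17 (95% interval -0.06 to 0.40, limma adjusted p 0.157). The other stalk subunits were not called either. The gamma and delta subunits of the central stalk (Atp5c1 and Atp5d) differed by -0.04 and 0.02, and Atp5f1, Atp5o and Atp5j, which form the stalk at the side, by 0.07, 0.24 and -0.19. Atp5j2, a membrane subunit, differed by -0.08.

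Atp5l, a membrane subunit of complex V, stood apart from the other 9 in both level and change. Its position is GRCm38 chromosome 9, bases 44912557 to 44920742, reverse strand. It was at 13.9 and 13.99 TPM at E12.5, 15.3 and 18.4 at E14, 16.7 and 18.9 at E15.5, 24.1 and 27.0 at E17, and 26.0 and 24.99 at P0. The E17 and P0 libraries were all above those of the earlier stages. It rose by 0.83 (SE 0.12, limma adjusted p 4.06e-05) and passed the threshold in each of 20 alternatives, while the other 9 genes had means between 281 and 1006 TPM.

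Near-identical copies were counted in the annotation. The transcript of Atp5l matched transcripts of 9 other genes, 8 of them pseudogenes, over at least 200 bases at 95% identity or more. Atp5l had the most such copies of the 36 genes, of which 10 had any (Uqcrb had 3 and Cox6c 2). How reads that match several genes were counted is not stated, so the levels of these 10 genes are uncertain, and the part of the copies in the level or change of Atp5l was not tested.

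**Figure D4:**
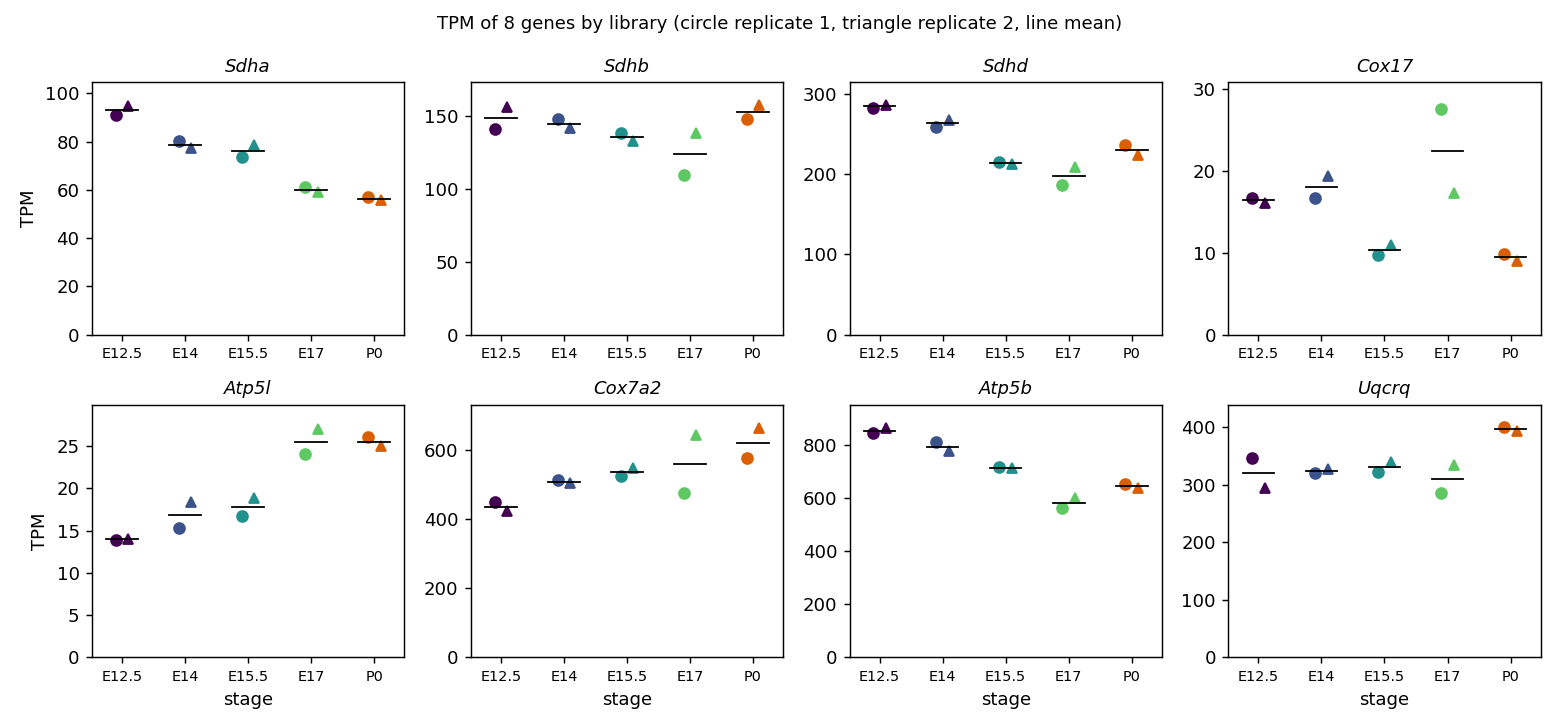
TPM of 8 genes (y axis, from 0) by stage (x axis), with circles for replicate 1, triangles for replicate 2 and a line at the mean. Sdha falls from 90.9 and 94.9 to 56.9 and 55.9 TPM while Sdhb stays between 109 and 157 TPM, Atp5l rises from 13.9 and 13.99 to 26.0 and 24.99 TPM, and Cox17 is highest at E17.

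Among the 5 assembly factors, Cox17 moved in both directions. Cox17 delivers copper for the assembly of complex IV (GRCm38 chromosome 16, bases 38346991 to 38352763, forward strand). It was at 16.7 and 16.1 TPM at E12.5, 16.6 and 19.4 at E14, 9.69 and 10.9 at E15.5, 27.6 and 17.3 at E17, and 9.91 and 9.03 at P0. The libraries of E15.5 and P0 lay below all others, and E17 replicate 1 was the highest. In limma it fell by 0.75 from E14 to E15.5 (adjusted p 0.00421), rose by 1.02 to E17 (adjusted p 0.00251) and fell by 1.13 to P0 (adjusted p 0.000626). Without E17 replicate 1 the last 2 changes were 0.69 and -0.80, both called. Over the whole period it fell by 0.73 (SE 0.18, limma adjusted p 0.00249). The size of this fall depended on the scale, at -0.48 with median-of-ratios scaling (limma adjusted p 0.0111), -0.44 with a pseudocount of 10 and -0.32 with quantile normalization (limma adjusted p 0.0469). Its exons overlap those of Gm21987 on the same strand, so reads there cannot be given to one gene alone, and the part of this in the changes was not tested.

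Atp5sl shares its prefix with complex V, though its product is known as an assembly factor of complex I. It was at 24.2 and 27.5 TPM at E12.5, 27.1 and 28.3 at E14, 29.2 and 31.2 at E15.5, 35.3 and 34.6 at E17, and 35.0 and 30.9 at P0. It rose by 0.34 from E12.5 to P0 (SE 0.10, limma adjusted p 0.00892), a call lost without E12.5 replicate 1 or P0 replicate 1, and by 0.61 under both median-of-ratios scaling and quantile normalization. Sdhaf2, which helps attach the flavin to Sdha, had the highest level of these 5 genes. It was at 102 and 91.5 TPM at E12.5, 102 and 103 at E14, 97.8 and 91.3 at E15.5, 96.3 and 90.2 at E17, and 99.2 and 98.5 at P0, with a difference of 0.03 (95% interval -0.15 to 0.21, limma adjusted p 0.737). Cox15, which makes the haem a of complex IV, and Cox20, a chaperone of one of its subunits, were at -0.27 (limma adjusted p 0.059) and 0.24 (0.0978).

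Summed over genes, the libraries of E12.5 and P0 did not overlap for complexes II, IV and V and overlapped for complex III. The sums were lower at P0 for complexes II and V and higher for complex IV. With 2 libraries per stage, a lack of overlap arises easily by chance, so it does not show that a complex changed. The 10 genes of complex V summed to 4561 and 4534 TPM at E12.5 and 4488 and 4296 at P0. Those of complex IV summed to 4277 and 4128 TPM and to 4803 and 4526, and those of complex III to 2653 and 2603 and to 2652 and 2566. Complex II was at 514 and 537 TPM at E12.5, 486.5 and 486.1 at E14, 427 and 424 at E15.5, 357 and 406 at E17, and 441 and 438 at P0. The sums cover only the genes in the table and were not tested.

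**Figure D5:**
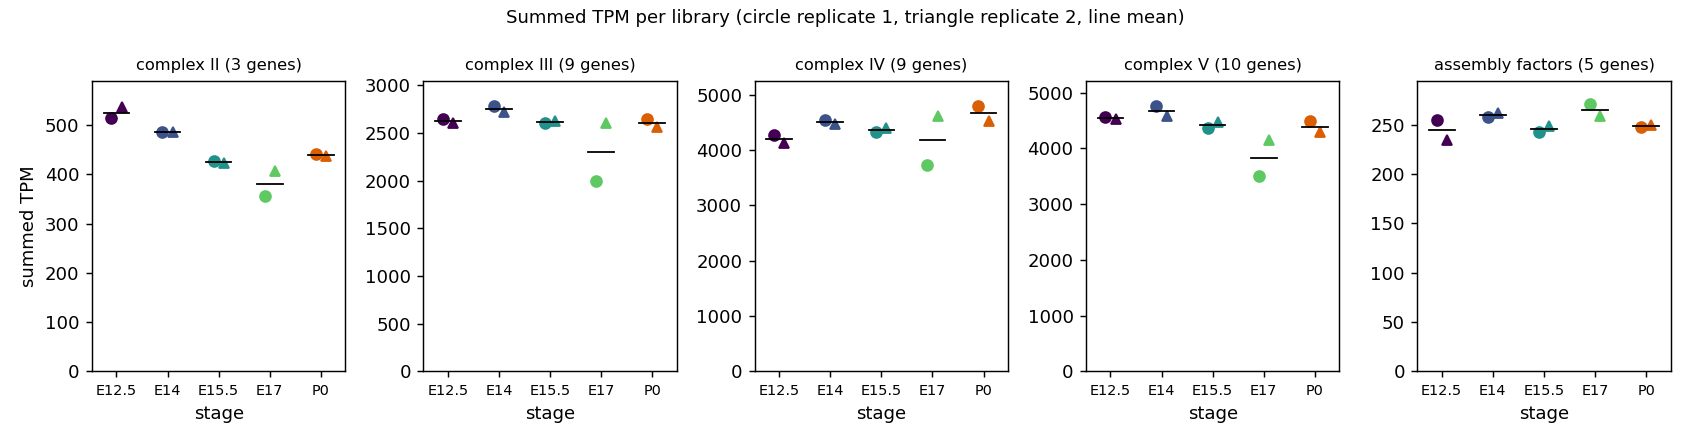
Summed TPM of the genes of each complex in the table (y axis, from 0) by stage (x axis), with circles for replicate 1, triangles for replicate 2 and a line at the mean. E17 replicate 1 is the lowest library for complexes II to V (357, 1994, 3726 and 3507 TPM), whereas E17 replicate 2 lies at 406, 2601, 4618 and 4155 TPM.

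Between neighbouring stages few of these genes were called. From E12.5 to E14 limma called none of the 36, of which 2 had an unadjusted p under 0.05, where 3.95% of all genes were called higher and 4.78% lower, 8.73% in all. With only the 4 libraries of these stages in the fit, 9 were higher and 2 lower, and without either E17 library 5 were higher and 1 lower. From E14 to E15.5, 2 were lower, Cox17 and Sdhd, where 33.3% of all genes were called lower and 18.4% higher, 51.7% in all. The count was 8 without either E17 library, 12 with only the 4 libraries of these stages in the fit, and 1 without E14 replicate 2, without E15.5 replicate 2 or under median-of-ratios scaling.

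From E15.5 to E17, 28 of the 36 genes had a negative change, with a median of -0.13 against 0.01 for all genes. Atp5a1 fell by 0.23 (limma adjusted p 0.0458), Atp5b by 0.30 (0.0161) and Sdha by 0.34 (0.00904). Atp5l rose by 0.50 (0.0106), as did Cox17. So 2 were higher and 3 lower, where 14.4% of all genes were called higher and 10.6% lower, 25% in all. Without E17 replicate 1 the median was 0.00, with 3 higher and 2 lower. Without E17 replicate 2 it was -0.27, with 23 lower. No gene was lower without E15.5 replicate 1 or without E15.5 replicate 2, and 1 was higher without E15.5 replicate 1. With only the 4 libraries of these stages in the fit, limma called 0 of the 36.

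From E17 to P0, 30 of the 36 had a positive change, with a median of 0.15 against -0.10 for all genes. Of the 36, 8 were called higher and Cox17 lower, where 12.9% of all genes were called higher and 28.8% lower, 41.7% in all. The 8 were Uqcr10 (0.37), Uqcrq (0.36), Uqcrb (0.31) and Uqcrc1 (0.24) of complex III, Sdhb (0.31) and Sdhd (0.22), Cox5b (0.37) and Atp5a1 (0.30). Without E17 replicate 1 the median was 0.03, and 5 were higher: Atp5a1 (0.25), Cox5b (0.32), Uqcr10 (0.23), Uqcrc1 (0.23) and Uqcrq (0.25). In that fit Cox17 (-0.80), Cox20 (-0.28) and Uqcrh (-0.31) were lower. Without E17 replicate 2, 26 were higher and 2 lower. The count of 8 became 5 without E14 replicate 1 or E14 replicate 2, 4 without E15.5 replicate 1 or E15.5 replicate 2, 2 without P0 replicate 1, and 0 with only the 4 libraries of these stages in the fit, where Cox17 was still called lower. Without E17 replicate 1, the median of the 36 genes thus showed next to no fall to E17 and no more than 0.03 of rise after it. Without E17 replicate 2, the fall to E17 was larger than with both libraries. Which of the 2 libraries stands nearer to the stage was not tested.

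Over all 5 stages, limma's moderated F test called 15 of the 36 genes, where 82.9% of all genes were called. They were 2 of 3 in complex II, 5 of 9 in complex III, 2 of 9 in complex IV, 4 of 10 in complex V and 2 of 5 assembly factors. The count was 9 without E14 replicate 1, 23 without E17 replicate 1 and 33 without E17 replicate 2.

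Other genes of the pathway were counted from lists. Complex I is the entry point of the chain for NADH. Names of its subunits took in 32 genes, among them Ndufa4, which is now counted in complex IV. Of these 32 genes, 11 rose and 4 fell from E12.5 to P0, Ndufa4 not among them, and the median was 0.13. Beside these and the next counts stand the 27.1% of all genes tested that were called higher and the 51% called lower, with a median of -0.27. Ndufa8 rose most (0.67, SE 0.07, limma adjusted p 4.5e-06) and Ndufc2 fell most (-0.50, SE 0.09, adjusted p 0.00024). Of 16 genes of the citric acid cycle and pyruvate dehydrogenase, 4 were higher and 5 lower, with a median of -0.03. Idh3a, a subunit of isocitrate dehydrogenase, went from 70.0 to 122 TPM (0.79, SE 0.08, limma adjusted p 2.06e-06). Suclg2, the GTP-specific subunit of succinyl-CoA ligase, which makes the substrate of complex II, went from 44.3 to 6.87 TPM (-2.53, SE 0.10, limma adjusted p 1.13e-09).

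Of 12 further assembly and accessory genes in the table, 3 were higher and 5 lower, shares near the 27.1% and 51% of all genes tested. Atpif1, which inhibits ATP synthase when it runs backwards, rose most, from 433 to 778 TPM (0.84, SE 0.12, limma adjusted p 4.38e-05). Taco1, needed to translate a subunit of complex IV, fell most, from 17.6 to 8.79 TPM (-0.93, SE 0.11, limma adjusted p 1.15e-05). Of 8 genes for the exchange of ATP and phosphate, 4 were higher and 3 lower, with a median of 0.19. Ckmt1, the mitochondrial creatine kinase, rose most, from 3.31 to 23.8 TPM (2.53, SE 0.11, limma adjusted p 1.86e-09). Among the carriers that swap ATP for ADP across the inner membrane, Slc25a5 fell most in this list, from 538 to 233 TPM (-1.20, SE 0.08, limma adjusted p 6.44e-08), and Slc25a4, named after its values were seen, went from 439 to 760 TPM (0.79, SE 0.09, limma adjusted p 5.75e-06).

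Transcripts that mark cell types changed over the same period. Summed TPM of 11 genes that mark dividing progenitors went from 2198 and 2310 at E12.5 to 324 and 328 at P0, and that of 10 neuronal genes from 1579 and 1639 to 8803 and 9108. The 10 neuronal genes were all called higher and the 11 progenitor genes all lower, where 27.1% of all genes tested were called higher and 51% lower. These counts do not tell which part of the brain was taken. The 3 red blood cell genes in the table (Hbb-y, Hbb-bh1 and Slc4a1) summed to 4323 and 4494 TPM at E12.5 and 2.49 and 2.04 at P0. At E12.5 nearly all of this was Hbb-y, with a mean of 4349 TPM. Fewer blood cells and less of these transcripts per cell cannot be told apart here. The 2 choroid plexus genes summed to 1405 and 1517 TPM at E14 and at most 5.26 from E15.5 on. With the globins and Ttr taken out of the total, 5 of the 36 genes were again higher and 4 lower from E12.5 to P0. The 4 genes of astrocytes and the oligodendrocyte lineage in the table were all called higher, from a sum of 83.2 and 88.4 TPM at E12.5 to 161.3 and 160.9 at P0. The part of the other cell types in the changes was not tested. The only microglial gene in the table was between 4.66 and 8.93 TPM, and 2 vascular genes summed to 53.4 and 58.7 TPM at E12.5 and to 6.07 and 5.42 at P0.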

How the data were processed

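Polyadenylated RNA of the neocortex was sequenced from stranded libraries, per the labels' protocols. The authors deposited 1 table of TPM per gene and library, per the file headers. STAR, Subread and GRCm38.p5 are named in the submitters' processing notes, without versions; the annotation, transcript lengths and strand setting are not stated. Since TPM share a fixed total, a gene's value moves with all others, and the genes of the table hold 68.9 to 71.7% of it per library. Groups came from the sample labels.

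Values were taken as log2(TPM + 1), which understates the change of low genes, and genes with a mean under 1 TPM (99 of 6147) were left out. A mean per stage was fitted to all 10 libraries with limma 3.58.1 (R 4.3.3, variance trend, 5 residual degrees of freedom), with Benjamini-Hochberg adjustment over 6048 genes and a threshold of 0.05. The paralog difference had a two-sided exact permutation test (scipy 1.17.1). Where duplicates share a source, p-values measure only the spread between these samples. On simulated data the fit recovered 195 of 200 genes changed by 1 and 108 of 200 changed by 0.5 (log2) between E12.5 and P0. Only these 200 of 6048 genes were changed there, whereas 78.2% were called in the data between these stages. The adjustment is stricter when fewer genes change, so these recoveries can understate those in the data. Copies and overlaps came from GENCODE M21 with blastn 2.17.0 and bedtools 2.31.1, and promoters from RefSeq.

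The genes and lists were chosen with earlier results of these data known. Values of every library are printed for the gene with the highest mean, the largest rise and the largest fall of each complex, and for each gene of the listed paralog pairs with a mean of at least 1 TPM (Cox4i1, Cox6a1, Cox6b1, Cox7a2 and Cox7a2l); other genes are named where called or counted in full. Of each pathway list, the largest called rise and fall are named. Alternatives were other scalings, pseudocounts, filters, fits and each library left out.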

Additional observations from a re-analysis of the deposited data

How the results depend on the processing

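Sdha, Cox17, Atp5l and Cox7a2 kept direction and call from E12.5 to P0 in all 20 alternatives. Median-of-ratios scaling gave 19 genes higher and 2 lower from E12.5 to P0, and 1 lower from E14 to E15.5. Quantile normalization gave 1 higher from E14 to E15.5. With only the 2 stages compared in the fit, 9 were higher and 2 lower from E12.5 to E14, 12 lower from E14 to E15.5, 0 higher and 0 lower from E15.5 to E17, 0 higher from E17 to P0, and 7 lower from E12.5 to P0. Leaving out each library in turn gave, from E12.5 to P0, 2 to 9 higher and 4 to 10 lower; from E12.5 to E14, 0 to 5 higher and 0 to 1 lower; from E14 to E15.5, 1 to 8 lower; from E15.5 to E17, 1 to 3 higher and 0 to 23 lower; and from E17 to P0, 2 to 26 higher and 1 to 3 lower. Over the 5 stages it gave 9 to 33 genes, and the paralog difference lay between -0.612 and -0.214. The causes were not tested. Every share of all genes called that is given here belongs to the fit of all 10 libraries on TPM as deposited, and none to an alternative.

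Changes from E12.5 to P0 that were not called and turned sign were, under median-of-ratios scaling, Atp5a1 0.13, Atp5c1 0.24, Atp5j 0.082, Atp5j2 0.20, Cox15 0.0018, Cox5a 0.22, Cox7c 0.12, Cyc1 0.11, Uqcrb 0.24, Uqcrc1 0.16, Uqcrc2 0.26 (limma adjusted p 0.0316), Uqcrfs1 0.16 and Uqcrh 0.048. Under quantile normalization they were Atp5d -0.0048, Uqcrb 0.035 and Uqcrc2 0.050, and without globins and Ttr Uqcrc2 0.0060. With each library left out in turn, the ranges that crossed 0 were -0.065 to 0.10 for Atp5d, -0.18 to 0.018 for Atp5j2, -0.041 to 0.18 for Cox4i1, -0.035 to 0.38 for Cox6a1, -0.0060 to 0.19 for Cox7a2l, -0.048 to 0.11 for Sdhaf2, -0.031 to 0.12 for Sdhb, -0.12 to 0.043 for Uqcrb and -0.038 to 0.0017 for Uqcrc2.

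With the replicate number as a block, 5 genes were higher and 4 lower from E12.5 to P0, 2 lower from E15.5 to E17, and 13 changed over the 5 stages. Deviations of same-numbered libraries correlated between -0.375 and 0.107 over 10 pairs of stages. The replicate numbers thus did not pair the libraries in one direction. A batch or preparation shared across stages was not tested. Depth per library is not given, so the limit it sets is unknown.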
